A study of Mus musculus with 2 samples.

Results

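Hepcidin and the genes by which the liver senses and moves iron were examined in regenerating livers of mice labelled as having (WT) or lacking (KO) PPARβ. The genes were the hormone genes Hamp and Hamp2, the BMP pathway genes Bmp6, Hfe2, Tmprss6 and Id1, and the iron sensing and transport genes Hfe, Tfr2, Tfrc and Slc40a1. They were picked by symbol with results of these same libraries already known, and the values that chose them are therefore given as a description, with no test. Of the 10 symbols, 9 had a row of their own among the 33224 gene symbols of the authors' deposited table. Tfr2 was the exception, since RefSeq gives Trfr2 as its synonym and that name shares a row with Actl6b. Id1 is neither hepcidin nor an iron sensor and is included as a target gene of BMP signalling.

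RNA-sequencing was done on liver of male C57BL/6 mice labelled as 4 months old, collected 48 hr after partial hepatectomy (PH) as the study states. The KO group is labelled PPARbeta-null and the WT group wild type, both groups underwent PH with free access to food and water, and no drug is named for either. How the null allele was made, and which part of Ppard it removes, is not given in the sources used here. Each genotype gave 1 library, so no value carries an error between mice, and no test of the genotypes was possible. Whether a library came from 1 mouse or a pool is not given in the sources used here. Ppard, the targeted gene, measured 2.67 FPKM in WT against 2.42 FPKM in KO, so the level of the whole locus does not check the genotype labels, and KO means throughout the library labelled PPARbeta-null. FPKM, the fragments mapped to a gene divided by its length and by the size of the library, is the authors' estimate for each locus and library.

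Hepcidin is a small peptide hormone that hepatocytes secrete into blood. It binds ferroportin, the iron exporter encoded by Slc40a1, on macrophages, enterocytes and hepatocytes and causes its degradation, which lowers the release of iron into plasma. Hamp transcription in hepatocytes is driven by BMP6 from liver endothelial cells through SMAD proteins and by interleukin 6 through STAT3.

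The promoter of Hamp is shown beside that of its neighbour Hamp2 because these genes had the largest folds, and because the sites of both inputs lie in it. Each sequence holds the 250 bases before the RefSeq start, from promoters on GRCm38.p6, and each was found once, unchanged, on chromosome 7 of NCBIM37. On that build the Hamp stretch is chr7:31729049-31729298 and the Hamp2 stretch chr7:31709201-31709450, both on the minus strand. Capitals mark the 6 bases at the BMP response element and the 9 bases that match the STAT motif TTCNNNGAA.
Hamp: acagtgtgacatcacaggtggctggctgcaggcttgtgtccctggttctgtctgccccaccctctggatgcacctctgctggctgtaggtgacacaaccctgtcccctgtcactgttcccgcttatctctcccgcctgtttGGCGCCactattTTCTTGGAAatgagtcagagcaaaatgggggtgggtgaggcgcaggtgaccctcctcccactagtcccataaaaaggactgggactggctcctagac
Hamp2: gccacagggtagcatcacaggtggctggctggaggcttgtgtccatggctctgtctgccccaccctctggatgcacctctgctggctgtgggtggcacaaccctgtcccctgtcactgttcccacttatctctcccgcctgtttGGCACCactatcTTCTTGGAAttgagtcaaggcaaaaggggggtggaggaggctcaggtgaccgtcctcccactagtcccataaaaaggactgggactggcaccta
Over 247 aligned positions the stretches were 91.9% identical. The BMP response element GGCGCC, whose letters read the same on both strands, began at -109 from the start of Hamp. The aligned 6 bases of Hamp2 carried 1 substitution, G4A, counted from 1 at the 5′ end of the element in Hamp, and thus did not hold these letters. The STAT match lay 6 bases further on in both genes, at -97 in Hamp and -94 in Hamp2.

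Promoters were given for 6 of the 10 genes, 9 windows in all, each of 250 bases before and 50 after a RefSeq start. The windows were searched on both strands for GGCGCC, TTCNNNGAA, the E-box CACGTG and DR1, the direct repeat that PPARs bind, and no match of one motif overlapped that of another. A further GGCGCC lay at -89 of the first of 2 Tfrc promoters, and an E-box at -127 of Bmp6. The windows of Hfe and Tfr2 held none of the 4 motifs. Among all 32851 promoters of that length, 11.9% held GGCGCC, 8.30% TTCNNNGAA, 0.645% both of these, 7.15% the E-box and 0.0396% the direct repeat. A match describes letters only and was not tested as a site.

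**Figure D1:**
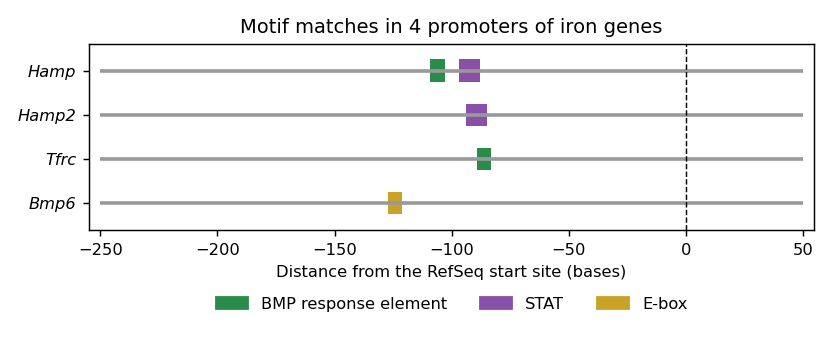
Position of motif matches in the promoters of Hamp, Hamp2, Tfrc (the first of its 2 promoters) and Bmp6, as distance in bases from the RefSeq start site (dashed line), with 1 coloured block per match and the grey line showing the window searched. The BMP response element is drawn at -109 in Hamp and is missing from Hamp2, while the STAT match lies at -97 and -94.

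Hamp (chromosome 7, 31727390 to 31729036 on NCBIM37, minus strand, 3 exons) measured 634 FPKM in WT against 143 FPKM in KO. It ranked 114 among all symbols by FPKM in WT and 495 in KO. The level was 4.45-fold lower in KO, with a 95% interval from 4.27 to 4.63. The interval rests on about 12815 and 2991 fragments, estimated from the depth of each library and the full length of the transcript. That depth came from genes of at least 800 bases. It was not checked for transcripts as short as Hamp (392 bases) and Hamp2 (437 bases), so their intervals may be too narrow. Every interval given here covers counting error only. None says anything of the spread between mice or of how the libraries are scaled. In bulk liver, fewer cells of a type and less RNA per cell cannot be told apart.

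Hamp2, the second mouse hepcidin gene (chromosome 7, 31707391 to 31709200, minus strand, 3 exons), measured 36.8 FPKM in WT against 7.10 FPKM in KO. It was 5.19-fold lower in KO (95% interval 4.39 to 6.17). Hamp thus exceeded Hamp2 17.2-fold in WT and 20.1-fold in KO on the FPKM scale. The transcripts are 94.4% identical over 392 aligned bases, so a part of the reads may have been placed on the wrong gene. Because Hamp was far more abundant, misplaced reads would weigh more on Hamp2, and the 2 folds may not be independent. None of the 293 windows of 100 bases in the Hamp transcript occurs unchanged in that of Hamp2, and 129 of them (44.0%) occur there with at most 2 mismatches.

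**Figure D2:**
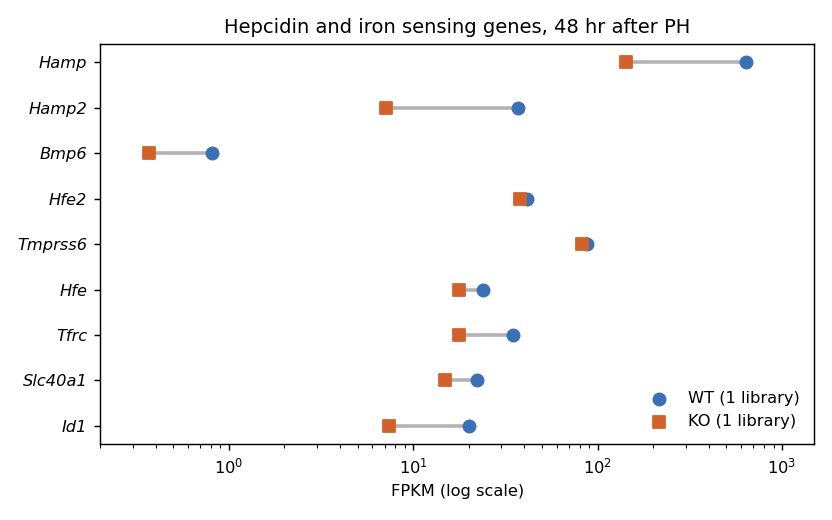
FPKM (log scale) of the 9 genes with a row of their own, with a circle for the WT library, a square for the KO library and a grey line joining them. Hamp runs from 634 to 143 and Hamp2 from 36.8 to 7.10, while the WT and KO symbols of Tmprss6 overlap, as do those of Hfe2.

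Among the genes that set BMP signalling at the hepatocyte, the ligand was low and its co-receptor abundant. Bmp6, the BMP ligand that reports liver iron, measured 0.812 FPKM in WT against 0.369 FPKM in KO, the lowest of the 9 genes in both libraries. It was 2.20-fold lower in KO (95% interval 1.63 to 3.00, about 140 and 66.1 fragments). With the pseudocount of 0.1 FPKM used for counts of genes its log2 KO/WT was -0.96, just short of 2-fold. The measured row spans chromosome 13, 38436995 to 38620693, and runs past the annotated end of the gene at 38592183 into Txndc5. The annotated gene overlaps the last 236 bases of Txndc5 on the other strand. Txndc5, which was chosen after its values were seen, measured 92.2 FPKM in WT against 58.7 FPKM in KO, and how many reads of the row belong to either gene was not measured.

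Liver endothelial cells are the main source of Bmp6. Of 12 endothelial markers 11 were lower in KO, where 74.8% of all genes were lower. Their log2 values had a median of -0.61, or -0.34 with equal upper quartiles and -0.38 with centring, their FPKM summed to 94.4 in WT against 67.3 in KO, and none was listed at 0. The part of these cells in the Bmp6 difference was not tested.

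Hfe2, also called Hjv, encodes hemojuvelin, the co-receptor that binds BMP6 on hepatocytes (chromosome 3, 96328924 to 96333139). It measured 41.5 FPKM in WT against 38.0 FPKM in KO, a 1.09-fold lower level in KO (95% interval 1.05 to 1.14). Tmprss6 encodes matriptase-2, a protease that cleaves hemojuvelin and so restrains hepcidin (chromosome 15, 78270098 to 78299073). It measured 87.2 FPKM in WT against 82.2 FPKM in KO, a 1.06-fold lower level (95% interval 1.04 to 1.09). These were the smallest differences of the 9 genes, and the direction of both turned to higher in KO when the libraries were scaled to equal upper quartiles or centred on the median gene.

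Id1, a direct target of BMP-activated SMADs (chromosome 2, 152561987 to 152563146), measured 19.96 FPKM in WT against 7.40 FPKM in KO. It was 2.70-fold lower in KO (95% interval 2.42 to 3.01). Id2, Id3 and Id4, its relatives in the same family of transcription inhibitors, were not lower under any scaling tried. Id2 measured 78.5 FPKM in WT against 117 FPKM in KO, Id3 40.6 and 45.3, and Id4 0.204 and 0.343. Id3 exceeded Id1 2.04-fold in WT and 6.12-fold in KO. The inhibitory SMAD genes, which BMP signalling also induces, had 4.32 FPKM in WT against 2.63 FPKM in KO for Smad7 and 1.57 and 1.66 for Smad6. Id3, Id4, Smad6 and Smad7 were chosen for naming after their values were seen.

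Hfe and Tfr2 encode hepatocyte surface proteins that take part in sensing transferrin-bound iron. Hfe (chromosome 13, 23793903 to 23803158) measured 23.9 FPKM in WT against 17.7 FPKM in KO, a 1.35-fold lower level in KO (95% interval 1.28 to 1.42). For Tfr2, only the joint row of Actl6b and Trfr2 could be given (chromosome 5, 137994745 to 138028709). It measured 108 FPKM in WT against 120 FPKM in KO, which is 1.11-fold higher in KO, and how much of it belongs to Tfr2 was not measured. This row is not counted with the 9 genes.

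Tfrc encodes transferrin receptor 1, through which dividing and iron-poor cells take up transferrin, and Slc40a1 encodes ferroportin. Both mRNAs are known to carry iron responsive elements, hairpins bound by iron regulatory proteins. Their matches are shown as sequence only, and their part in the mRNA levels that follow was not tested. The search took a C, 5 bases, CAGTGN and 5 bases pairing with the first 5, with GT pairs allowed, in the longest coding transcript of each gene. The letters below run 5′ to 3′ on NCBIM37, with the CAGTG of the loop in capitals.
Tfrc, chr16:32631311-32631327, plus strand, 3′ UTR: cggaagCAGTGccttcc
Tfrc, chr16:32631690-32631706, plus strand, 3′ UTR: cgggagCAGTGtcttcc
Tfrc, chr16:32631755-32631771, plus strand, 3′ UTR: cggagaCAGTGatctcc
Tfrc, chr16:32631802-32631818, plus strand, 3′ UTR: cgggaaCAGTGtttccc
Slc40a1, chr1:45982316-45982332, minus strand, 5′ UTR: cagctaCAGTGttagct
Of the 9 genes, Tfrc with 4 matches and Slc40a1 with 1 were the only ones that held this pattern, and 1.13% of 22611 coding genes held it. Elements that deviate from it are not found by such a search.

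Tfrc (chromosome 16, 32609006 to 32632880, 19 exons) measured 34.5 FPKM in WT against 17.7 FPKM in KO. It was 1.95-fold lower in KO (95% interval 1.88 to 2.02). Slc40a1 (chromosome 1, 45964915 to 45982439, 8 exons) measured 22.3 FPKM in WT against 14.9 FPKM in KO, a 1.496-fold lower level (95% interval 1.42 to 1.57). Tfrc exceeded Slc40a1 1.55-fold in WT and 1.19-fold in KO.

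Kupffer cells and macrophages are rich in ferroportin, and 11 of their 12 markers were lower in KO, beside 74.8% of all genes. Their median log2 value was -0.73, or -0.46 with equal upper quartiles and -0.50 with centring, with an FPKM sum of 117.9 in WT and 73.2 in KO. Slc40a1 itself had a log2 value of -0.58. No marker of these cells was listed at 0. Of the 13 markers of dividing cells, a state in which Tfrc is known to be high, 13 were 2-fold or more lower in KO, beside 9.94% of all genes. Their median was -6.12, their sum was 276 in WT and 16.6 in KO, and Bub1 was listed at 0 in KO. Erythroid cells hold Tfrc as well, and their 8 counted markers had a median of -0.30, or -0.03 with equal upper quartiles and -0.07 with centring, with a sum of 507 in WT and 420 in KO. Gata1 was listed at 0 in both libraries and Epb4.2 in KO. The part of these cell types in the Tfrc and Slc40a1 differences was not tested.

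By FPKM, the order in WT ran from Hamp through Tmprss6, Hfe2, Hamp2, Tfrc, Hfe, Slc40a1 and Id1 to Bmp6. In KO the order was Hamp, Tmprss6, Hfe2, then Hfe and Tfrc at the same 17.7 FPKM, Slc40a1, Id1, Hamp2 and Bmp6. With 1 library a genotype, no spread between mice could be set against the gaps between neighbours.

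Set side by side, all 9 genes had a lower FPKM in the KO library, but so did 74.8% of the 15727 genes whose FPKM averaged 0.1 or more. Tfr2 is not among the 9. The joint row of Actl6b and Trfr2 was 1.11-fold higher in KO and was left out, although joint rows were counted in the lists below. On the log2 KO/WT scale the 9 had a median of -0.96, against -0.25 for the 15727 genes, each with a pseudocount of 0.1 FPKM. Scaling to equal upper quartiles moved all genes up by 0.28 and centring on the median gene (of those averaging 1 FPKM or more) by 0.24. Relative to that median, Hamp2 lay at -2.12, Hamp at -1.91, Id1 at -1.18, Bmp6 and Tfrc at -0.72, Slc40a1 at -0.34 and Hfe at -0.19. Hfe2 at 0.11 and Tmprss6 at 0.15 lay above it.

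Hamp, Hamp2 and Id1, of which the first 2 may share reads, were 2-fold or more lower in KO by the log2 value with pseudocount. That is 3 of the 9 genes. Among the 15727 genes, 9.94% were lower to that degree and 2.08% higher, and none of the 9 genes was 2-fold or more higher. With equal upper quartiles 6.998% of all genes were lower and 3.51% higher, and with centring 6.87% and 3.27%. Of the 8 genes that averaged 1 FPKM or more, 3 were 2-fold or more lower, beside 8.23% lower and 1.71% higher of all genes at that level. At 1.5-fold, 5 of the 9 genes were lower, beside 22.9% lower and 4.93% higher of all genes. Because this contrast chose the genes, nothing is read from these shares. Nearest outside the 2-fold line were Bmp6 and Tfrc, both at -0.96, and nearest inside was Id1 at -1.42. Of all genes, 2.44% had a lower log2 value than Hamp, 2.02% than Hamp2 and 5.39% than Id1, against 63.4% for Hfe2 and 67.4% for Tmprss6.

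**Figure D3:**
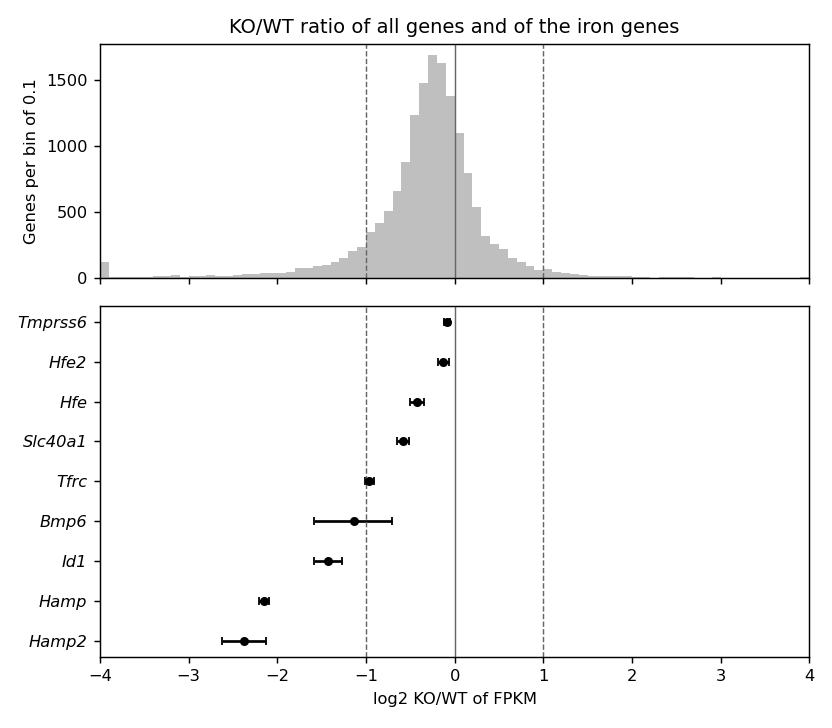
Upper panel, number of genes per bin of 0.1 in log2 KO/WT (pseudocount 0.1 FPKM) over 15727 genes, with values past 4 in size gathered in the end bins. Lower panel, log2 KO/WT of FPKM without a pseudocount for the 9 genes, with 95% intervals of counting error; dashed lines mark 2-fold, and Hamp, Hamp2, Id1 and Bmp6 lie to the left of the lower one.

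Further genes around the hepcidin pathway were taken from 6 lists, and each count of genes 2-fold apart is to be read beside the 9.94% lower and 2.08% higher of all genes. Of the BMP and SMAD list, 28 of 33 genes reached a mean FPKM of 0.1, and their median log2 KO/WT of -0.23 was close to that of all genes and turned to 0.037 with equal upper quartiles and 0.0090 with centring. In KO, 3 of the 28 were 2-fold or more lower, near the share of all genes, and none higher. The 3 were the receptor gene Acvr2b, Smad9 and the BMP-binding Bmper, named after their values were seen, and all had a mean FPKM below 1. The most abundant were Id2, above, and Spint2, an inhibitor of serine proteases, with 85.3 FPKM in WT against 67.3 FPKM in KO.

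In the list of the IL-6 and STAT3 input, none of the 12 counted genes was 2-fold apart. Their median was -0.15, or 0.12 with equal upper quartiles and 0.08 with centring. Under each of those scalings 2 of them, Creb3l3 and Socs3, were 2-fold or more higher, beside 3.51% and 3.27% of all genes. Hnf4a, a hepatocyte transcription factor, measured 172 FPKM in WT against 193 FPKM in KO. Creb3l3, a liver transcription factor of the acute phase and of hepcidin, measured 75.04 FPKM in WT against 147 FPKM in KO. Socs3, a feedback inhibitor that STAT3 induces, had 9.62 in WT and 18.6 in KO, while Stat3 itself had 55.3 and 50.9, a direction that turned under both of these scalings. Il6 was listed at 0.0371 in WT and at 0 in KO. Socs3, Stat3 and Il6 were named after their values were seen.

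Among the 17 counted genes of iron uptake, reduction and release, 2 were 2-fold or more lower in KO and 1, Lcn2, higher. Their median was 0.06, or 0.34 with equal upper quartiles and 0.30 with centring. Under each of those scalings 3 were 2-fold or more higher, beside 3.51% and 3.27% of all genes. Lcn2 encodes a binder of bacterial iron carriers and measured 538 FPKM in WT against 1935 FPKM in KO. Cp, the ferroxidase ceruloplasmin, had 354 in WT and 648 in KO. Steap2, a metalloreductase, had 1.76 in WT and 0.594 in KO. The other lower gene was Steap1, named after its values were seen, with only 0.436 in WT and 0.0605 in KO. Trf, which encodes transferrin, had no value among the rows used and was left out.

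Of the 14 genes of heme synthesis, binding and breakdown, 1 was 2-fold or more higher and 1 lower in KO, and the median was 0.02, or 0.29 with equal upper quartiles and 0.25 with centring. Under those scalings 4 and 2 genes were higher and none lower. Hp, the hemoglobin binder haptoglobin, measured 4002 FPKM in WT against 10602 FPKM in KO, and Hpx, the heme binder hemopexin, had 5230 and 8795. Blvra, a biliverdin reductase, was lower, with 10.9 FPKM in WT against 5.37 FPKM in KO, and was short of 2-fold under equal upper quartiles, centring, equal sums and a pseudocount of 1 FPKM. Hp, Hpx, Lcn2 and Cp are also acute phase genes and are no independent set from that response.

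Ferritin, the iron store, gave an uncertain result for its light chain. Ftl1 measured 4641 FPKM in WT against 1970 FPKM in KO, while Ftl2, a near copy of it, had 477 and 1300, and both are joint rows with another symbol. Reads can be split between these copies, and their sum was 5117 in WT and 3270 in KO. Fth1, the heavy chain, measured 1814 FPKM in WT against 1384 FPKM in KO. Over the 10 counted genes of iron storage and iron regulatory proteins the median was -0.31, or -0.039 with equal upper quartiles and -0.077 with centring. All 12 genes of iron-sulfur cluster assembly were lower in KO, none by 2-fold, where 74.8% of all genes were lower. Their median of -0.27 was close to the -0.25 of all genes. It lay near 0 after scaling to equal upper quartiles (0.0081) or centring (-0.030). Hspa9, a mitochondrial chaperone, measured 219 FPKM in WT against 154 FPKM in KO, and Glrx5, which carries clusters, had 75.9 and 61.2.

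**Figure D4:**
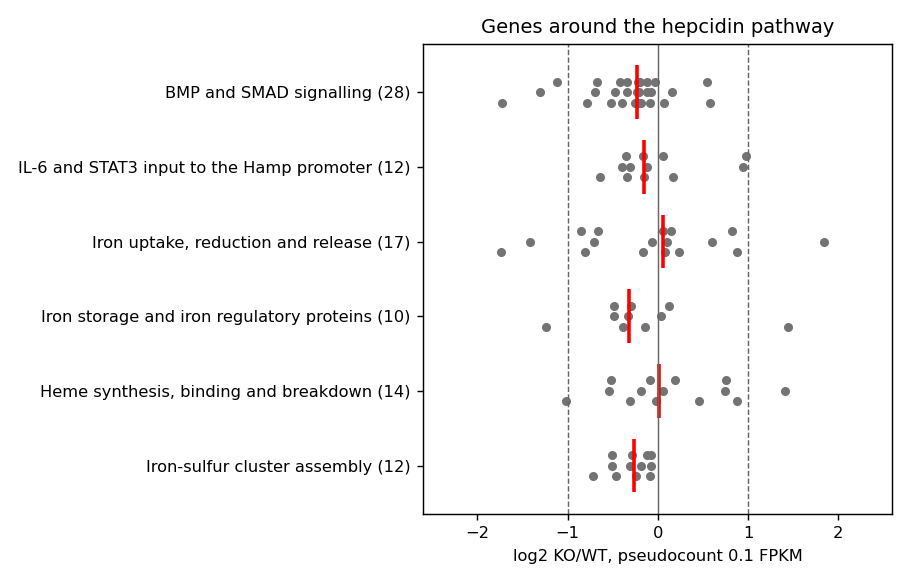
log2 KO/WT (pseudocount 0.1 FPKM) of each gene in 6 lists around the hepcidin pathway, with the number of counted genes in brackets, 1 dot per gene and a red bar at the median. The medians run from -0.31 for iron storage to 0.06 for iron uptake, and dashed lines mark 2-fold.

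Markers of the other cell types of liver also differed between the libraries, and their part in the results was not tested. Their counts are to be read beside the 74.8% of all genes that were lower in KO. By 2-fold or more, 9.94% of all genes were lower and 2.08% higher. Stellate cells, a possible source of other BMP ligands, had a median of -0.55 over 10 markers, or -0.28 with equal upper quartiles and -0.31 with centring, with a sum of 166 in WT and 109 in KO. The collagen genes Col1a1 (8.56 and 1.75 FPKM in WT and KO), Col1a2 (7.68 and 1.47) and Col3a1 (14.5 and 3.18) were 2-fold or more lower under every scaling. Hepatocytes are the source of hepcidin, and their markers differed in both directions. Over 11 hepatocyte markers the median was 0.19, or 0.47 with equal upper quartiles and 0.43 with centring, with 8 higher and 3 lower in KO and a sum of 30727 in WT and 36848 in KO. Cps1, an enzyme of the urea cycle, was the only one of them 2-fold or more lower in KO. It measured 1597 FPKM in WT against 743 FPKM in KO. Alb had no value among the rows used and was left out. Under equal upper quartiles and centring none of these markers was 2-fold or more lower, and 2 and 1 were higher. Fga (2531 and 4851 FPKM in WT and KO) and Fgb (2698 and 4534) had the highest log2 values of the hepatocyte list. Tat (1115 and 595) was, like Cps1, among the 3 lower ones. Neutrophil markers, with 6 counted genes, had a median of -0.85, or -0.62 with equal upper quartiles and -0.61 with centring. Their sum was 15.8 in WT and 8.39 in KO, and Ly6g, Mpo and Camp were listed at 0 in both libraries and Ngp in WT. The 5 counted lymphocyte markers had a median of -0.52, or -0.37 with equal upper quartiles and -0.28 with centring, with a sum of 1.90 in WT and 1.06 in KO. The marker genes named here were chosen after their values were seen.

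**Figure D5:**
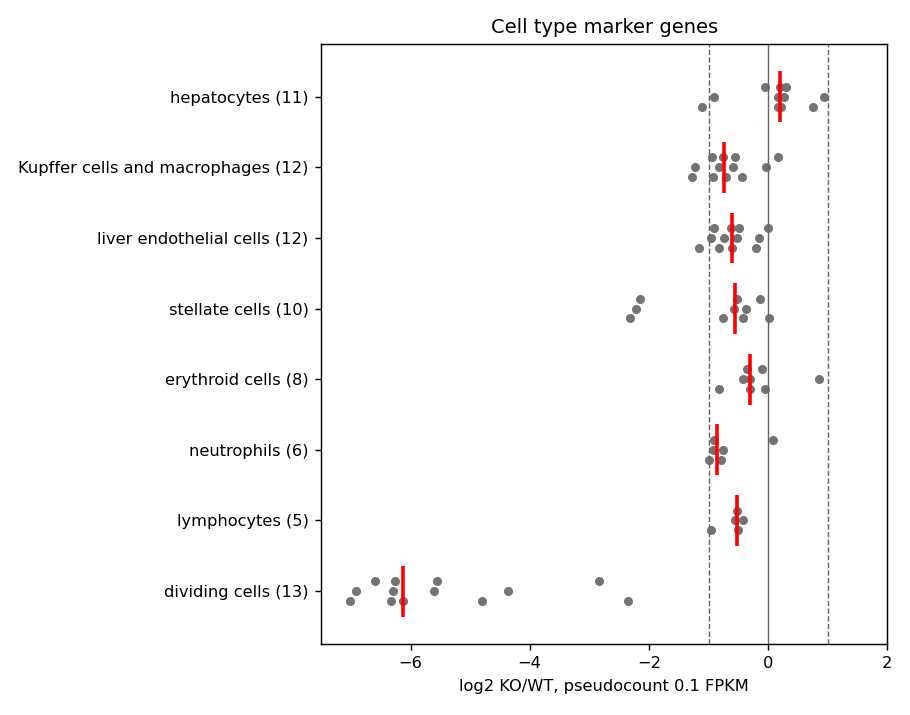
log2 KO/WT (pseudocount 0.1 FPKM) of each marker gene in 8 cell type lists, with the number of counted genes in brackets, 1 dot per gene and a red bar at the median. The median of hepatocyte markers is 0.19, those of Kupffer and endothelial markers are -0.73 and -0.61, and that of dividing cells is -6.12.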

How the data were processed

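The authors aligned the reads with TopHat 2.0.0 to NCBI37 (mm9), assembled transcripts with Cufflinks 1.3.0 and estimated 1 FPKM per locus and library with Cuffdiff. The labels describe paired end reads of 100 bp and the methods single end reads. The fold change, statistic, p-value and q-value columns hold the authors' own comparison and were not used. Of the 38016 rows in the authors' deposited table, 21 marked HIDATA were left out. Rows of one symbol were summed, and each of the 850 rows naming several symbols gave its value to each of them. The genes and lists were chosen with earlier results of these data known. Named were the 10 genes, Ppard and, of each of the 6 pathway lists, the 2 most abundant genes and every gene past 2-fold with a mean FPKM of at least 1 (with over 6, the 3 furthest in each direction).

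Counts and medians used log2 KO/WT with a pseudocount of 0.1 FPKM, which understates low genes, for genes averaging 0.1 FPKM or more. No test was run, since each group has 1 library. In single-exon genes of at least 800 bases the low FPKM lay at multiples of 0.0194 FPKM in WT and 0.0187 in KO per kb. That spacing was taken as 1 fragment. An FPKM of 1 on 1 kb thus rested on about 51.5 and 53.5 fragments. Fragments were estimated from the full length of the longest transcript in GENCODE vM1, which for Id1 is a form of 1 exon and 1160 bases. The 95% exact binomial (Clopper-Pearson) intervals of ratios were derived from these fragments. Scripts ran on Python 3.11.15, numpy 2.4.6, pandas 2.3.3 and scipy 1.17.1, and were tested on simulated data. Alternatives changed the pseudocount, filter, scaling, row handling and fold.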

Additional observations from a re-analysis of the deposited data

How the results depend on the processing

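No paired analysis was possible because each genotype has 1 library, and no library could be left out. Among the 9 genes, 3 were 2-fold or more lower in KO, and this count was 3 or 4 under the alternatives other than the 1.5-fold line, where it was 5. The fourth gene, with a pseudocount of 0.01 FPKM, was Bmp6. Their median log2 ratio ranged from -0.96 to -0.55. Hamp, Hamp2 and Id1 kept a log2 value below -1 under every alternative. With equal upper quartiles their values were -1.88, -2.09 and -1.15, and with centring -1.91, -2.12 and -1.18. Under both scalings these lay outside the counting intervals given for the unscaled ratios. Hfe2 and Tmprss6 turned to 0.15 and 0.19 with equal upper quartiles and to 0.11 and 0.15 with centring.

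Of all genes, 4.36% were 2-fold or more lower in KO with a pseudocount of 1 FPKM and 5.04% without the filter, and 22.9% passed 1.5-fold. The share of higher genes was 0.916%, 1.16% and 4.93% under these, 3.51% with equal upper quartiles and 3.27% with centring.

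A pseudocount of 1 FPKM left 0 lower genes in the BMP and SMAD, iron uptake and heme lists, and a mean FPKM of at least 1 left 0 in the first and 1 in the second. Equal upper quartiles and centring moved the medians of the BMP and SMAD list to 0.037 and 0.0090, of iron uptake to 0.34 and 0.30 and of iron-sulfur assembly to 0.0081 and -0.030. Under both, 2 genes of the IL-6 list and 3 of iron uptake were 2-fold or more higher, and 4 and 2 of the heme list, while 0 of iron storage and of heme were lower. Equal sums gave 1 higher gene in the IL-6 list and 0 lower in the heme list. Without joint rows, 0 genes of iron storage were lower and 0 higher. At 1.5-fold, 6 genes of BMP and SMAD, 1 of the IL-6 list, 6 of iron uptake and 1 of iron-sulfur assembly were lower, and 2 of the IL-6 list, 4 of iron uptake and 4 of heme were higher. These shifts follow from each setting's own construction.

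Depth limited Bmp6, at about 66.1 fragments in KO, more than any other of the 9 genes. Differences between mice were not measured.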
